A study of Mus musculus with 31 samples.

Results

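The mRNAs of mouse embryonic stem cells (mESCs) that carry a deletion of the Trim71-binding region in the *Ago2* 3'UTR (CLIPΔ) were compared with and without *Ago2*. The *Ago2* KO/CLIPΔ cells (Ago2 deletion and CLIP deletion) gave 4 RNA-seq libraries and the CLIPΔ cells gave 2. All 6 share the CLIPΔ allele, the ES-E14TG2a background and culture in 2i + Lif medium, in which Mek and Gsk3 are inhibited. Genes were kept where their mean over these 6 libraries reached 1 TPM, the transcript abundance scaled to a fixed library total, which left 11256 of the 15034 genes in the table. The minimum fell between *Rasl10b*, with a mean of 0.998 TPM, and *Mospd1*, with 1.00 TPM. The 6 further RNA-seq libraries, 4 of *Ago2* KO (Ago2 deletion) and 2 of wild-type (WT) mESCs with an intact Trim71-binding region, were used to see whether the effect of the deletion depended on the background. The WT line of the study carries a FLAG tag on Trim71, and the paper lists its CLIPΔ, *Ago2* KO and *Ago2* KO/CLIPΔ lines as FLAG-Trim71 cells too. The cells are clones grown from sorted single cells, the labels do not tie a library to a clone, and the p-values measure only the spread between these libraries.

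Ago2 is an Argonaute protein. It binds a mature miRNA and uses the seed of that miRNA to find complementary sites, mostly in 3'UTRs, where partners such as the GW182 proteins and the CCR4-NOT deadenylase repress translation and shorten the mRNA's life. Ago2 also stabilizes the miRNAs it holds and is the Argonaute able to cleave a fully paired target. In mESCs the miR-290 and miR-302 families support rapid division and self-renewal, whereas let-7 promotes differentiation. Trim71 is an RNA-binding protein of pluripotent cells, itself a let-7 target, and it binds the part of the *Ago2* 3'UTR that CLIPΔ removes. The comparison asks how mRNA levels differ when *Ago2* is lost from cells without this binding region.

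The *Ago2* deletion was made with a pair of guide RNAs. Their sequences are shown because they set which part of the mRNA is removed, 5' to 3', with the adjacent PAM in capitals.
guide 1: ggggttccaataccagcggtTGG
guide 2: gatccttggttacccgatccTGG
*Ago2* lies on the minus strand of chromosome 15 (GRCm38/mm10, 73095844 to 73184935). Guide 1 matched the minus strand at 73123240 to 73123262, with its cut in intron 11. Guide 2 matched the plus strand at 73124083 to 73124105, with its cut in intron 9. The cuts are 854 bases apart and enclose exons 10 and 11 of the 19 exons of the transcript Ago2-201. These 2 exons hold 257 coding bases, which leave a remainder of 2 when divided by 3, so their loss shifts the reading frame. Most of the 13800-base transcript lies outside the deleted part, so its read count does not measure the deletion itself.

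*Ago2* stood at 1.51, 1.72, 2.87 and 2.60 TPM in the 4 *Ago2* KO/CLIPΔ libraries and at 27.3 and 20.3 TPM in the CLIPΔ libraries. Every deleted library was below both controls, and *Ago2* fell by 2.97 on the log2(TPM + 1) scale used for all fold changes here (standard error 0.22, adjusted p = 0.000771 from limma). *Ago1*, the most abundant Argonaute mRNA in both groups, was at 38.9, 41.1, 49.6 and 46.9 TPM against 67.9 and 59.7 TPM. These groups did not overlap either, but the log2 fold change of -0.53 (adjusted p = 0.0147) did not hold under every scaling described below. *Ago3* and *Ago4* had means of 0.80 and 0.31 TPM and were not tested. No measured Argonaute mRNA was therefore higher after the loss of *Ago2*.

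Of the 11256 genes, 5394 (47.9%) passed an adjusted p of 0.05 in limma, 1205 (10.7%) higher and 4189 (37.2%) lower in the *Ago2* KO/CLIPΔ libraries, and 6378 had an unadjusted p under 0.05. The direction of this count depended on the scaling. TPM fixes the sum of each library, and on this scale the median gene was at a log2 fold change of -0.25. With median-of-ratios scaling the median was -0.02 and the calls divided into 2384 higher and 2552 lower, so that the share of lower calls went from 77.7% to 51.7%. With quantile normalization the median was -0.00 and the calls were 2294 higher and 2329 lower. A gene is therefore said to have risen or fallen only where it passed in the same direction under all 3 scalings. By this rule 1157 genes (10.3%) rose and 2020 (17.9%) fell, 155 and 902 of them by more than 2-fold. These shares are the background for every list below. The rule includes a pass on the TPM scale, and the 2-fold limit was set on TPM fold changes. The excess of genes that fell therefore carries the TPM median of -0.25 and is not a finding of its own. The 2 controls limit these calls, since 519 of the genes that rose and 1428 of those that fell passed without CLIPΔ replicate 1, and 1040 and 1965 without replicate 2. With replicates 1 and 2, and replicates 3 and 4, of *Ago2* KO/CLIPΔ averaged, so that 2 values stood against 2, 451 of the genes that rose and 1824 of those that fell passed. Some genes said below to have risen or fallen no longer passed without a control, with these pairs averaged or with the trend described next removed. They are given in their paragraph. For genes that missed a scaling, such as *Dicer1* and *Nanog*, these checks are not listed there.

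**Figure D1:**
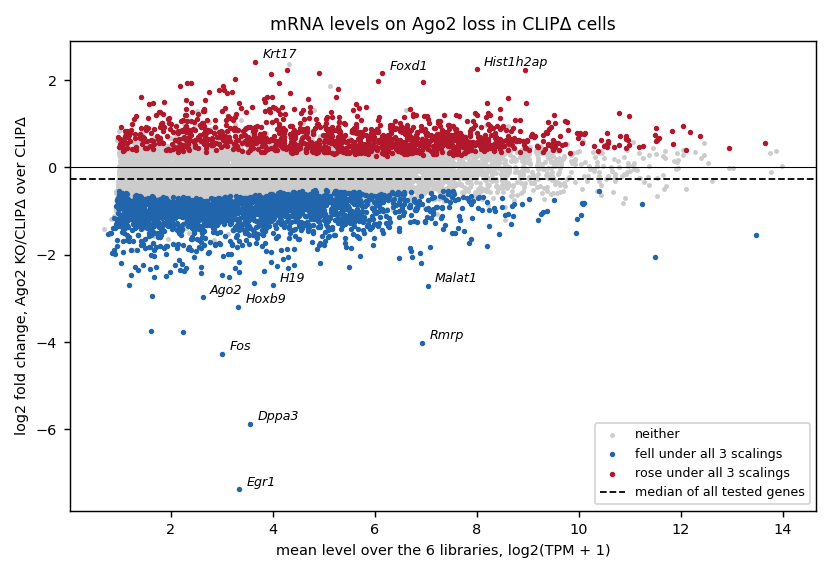
Each point is 1 of the 11256 genes, with the mean log2(TPM + 1) of the 6 libraries on the x axis and the log2 fold change of *Ago2* KO/CLIPΔ over CLIPΔ on the y axis. Genes that rose (1157, red) or fell (2020, blue) under all 3 scalings lie on both sides of the dashed median at -0.25, and the lowest points, *Egr1* and *Dppa3*, lie below -5 on this axis.

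The fold changes followed the base composition of the transcript. Across genes, Spearman's rho was 0.52 with the GC content of the longest transcript, -0.29 with its length and 0.27 with the mean level (genes are not independent replicates). In the eighth of genes with the lowest GC content (30.96 to 42.55%) the median was -0.70, and 9 genes rose and 644 fell of 1398. In the eighth with the highest (57.76 to 82.19%) the median was 0.19, and 374 rose and 49 fell. The loss of *Ago2* from WT cells, with no library in common, had nearly the same trend, with rho of 0.51 for GC content and -0.35 for length. After a smooth trend on GC content and length was removed, 1892 genes (16.9%) were higher and 1735 (15.5%) lower, 931 of the genes that rose and 1194 of those that fell among them. The medians of chromosomes with at least 100 tested genes ran from -0.48 on chromosome 13, with a median GC content of 47.1%, to -0.07 on chromosome 7, with 53.3%, and lay between -0.05 and 0.09 after the trend was removed. The part of library preparation in this trend was not tested.

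**Figure D2:**
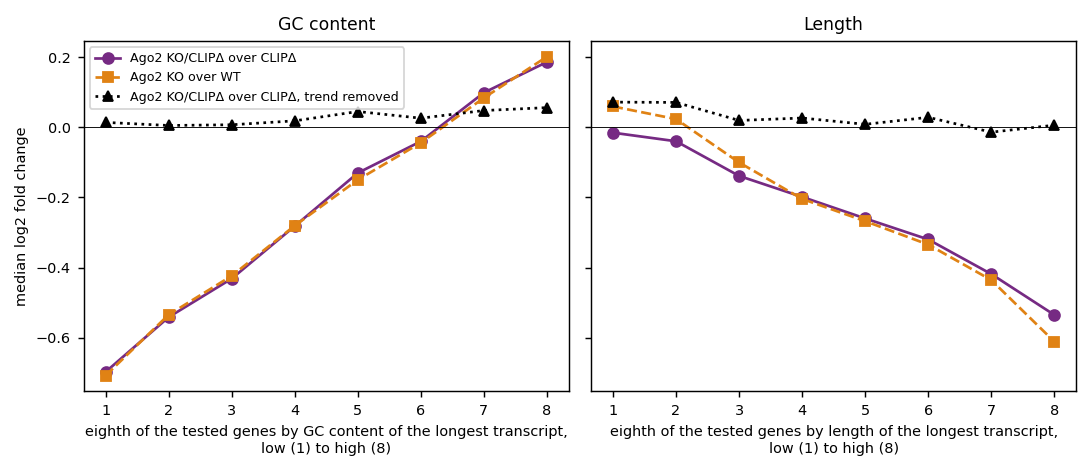
The tested genes were divided into 8 equal groups by GC content (left) or length (right) of the longest transcript, and the y axis gives the median log2 fold change of each group in both backgrounds and, for *Ago2* KO/CLIPΔ over CLIPΔ, after removal of the trend. The median of *Ago2* KO/CLIPΔ over CLIPΔ rises from -0.70 to 0.19 with GC content and falls from -0.02 to -0.53 with length, and the curve after removal is close to 0.

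The libraries had a structure that the genotypes do not give. Replicates 1 and 2 of *Ago2* KO/CLIPΔ correlated at r = 0.998, replicates 3 and 4 at 0.999, and libraries across these pairs at 0.990 to 0.991, whereas the 2 CLIPΔ libraries correlated at 0.980. The first principal component of all 12 libraries held 69.4% of the variance and separated the 8 *Ago2*-deleted libraries from the other 4. The labels name no batch, and a batch shared by the deleted libraries cannot be told apart from the deletion. Between 10692 and 11062 genes per deleted library were at or above 1 TPM, against 11436 to 11636 in the others. Since TPM holds no read counts, depth could not be known. The cells were mESCs by their markers: 9 of 10 were listed, with summed levels of 13007 to 15043 TPM in *Ago2* KO/CLIPΔ and 11550 to 11723 TPM in CLIPΔ, and *Sox2* is not analysed here. Markers of fibroblasts (4 of 7 listed; 4.15 to 5.04 against 2.97 to 6.53 TPM) and primitive endoderm (6 of 6; 3.29 to 3.61 against 3.54 to 5.71 TPM) were near 0 in sum. Summed trophectoderm (4 of 4; 112 to 156 against 103 to 108 TPM) and mesoderm markers (3 of 3; 44.0 to 60.2 against 37.4 to 42.2 TPM) were higher in every deleted library, and neural markers (3 of 4; 125 to 172 against 160 to 165 TPM) overlapped. *Krt8* and *Eomes* made up most of the trophectoderm and mesoderm sums, while other members had values in the opposite direction that did not pass, with -0.72 for *Cdx2* (10.2, 9.23, 5.11 and 5.13 against 10.2 and 14.9 TPM), -0.37 for *Mixl1* and -0.28 for *T*.

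The lowest fold change was that of *Egr1*, an immediate-early transcription factor induced by MAPK signalling. *Egr1* was at 0.848, 1.05, 0.735 and 0.814 TPM in the *Ago2* KO/CLIPΔ libraries and at 1613 and 57.3 TPM in the CLIPΔ libraries. The deleted libraries were all near 1 TPM, while the controls differed widely from each other. The log2 fold change was -7.37 (standard error 1.07, adjusted p = 0.00317), -4.97 without CLIPΔ replicate 1 and -9.76 without replicate 2. *Fos*, its partner in the immediate-early response, was at 2.40, 2.35, 1.83 and 1.56 TPM against 228 and 13.7 TPM (-4.27, adjusted p = 0.00841), with -2.28 without CLIPΔ replicate 1 and -6.25 without replicate 2. The WT libraries were split in the same way, with 2481 and 68.3 TPM of *Egr1* and 459 and 27.9 TPM of *Fos* in replicates 1 and 2.

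*Dppa3* (Stella), a germline and oocyte factor that shields DNA methylation in the early embryo and is uneven in naive mESCs, had the next lowest value. It was at 2.22, 2.38, 1.81 and 1.81 TPM against 269 and 117 TPM, a difference of -5.87 on the log2 scale (standard error 0.296, adjusted p = 0.000229). All deleted libraries were far below both controls, and the fold change was -5.28 without CLIPΔ replicate 1 and -6.47 without replicate 2. The pseudogene *Slc22a13b-ps* (0.699, 0.684, 1.48 and 1.21 against 36.8 and 18.3 TPM, -3.76) and the homeobox gene *Rhox3g* (0.312, 0.420, 0.207 and 0.216 against 23.6 and 11.0 TPM, -3.74) showed the same separation. *Rhox3g* belongs to a family of near-identical copies, between which the counting could split reads. *H19*, the maternally expressed imprinted RNA that also hosts miR-675, was at 7.57, 7.56, 7.50 and 7.72 TPM against 62.3 and 48.3 TPM (-2.70, adjusted p = 0.000229).

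Noncoding RNAs other than *H19* were among the 12 lowest. *Rmrp*, the RNA of RNase MRP, which processes ribosomal RNA, was at 32.1, 32.5, 72.2 and 66.2 TPM against 1029 and 594 TPM (-4.02, adjusted p = 0.00135). *Malat1*, a long nuclear RNA, was at 39.7, 50.7, 102 and 112 TPM against 676 and 311 TPM (-2.71, adjusted p = 0.00505). In both, replicates 3 and 4 of the deleted cells were above replicates 1 and 2, and no deleted library reached a control. The patterning gene *Hoxb9* was at 3.62, 3.15, 4.22 and 4.29 against 76.0 and 24.1 TPM (-3.20, adjusted p = 0.00213). *Ago2*, *Gm20219* (0.247, 0.582, 0.600 and 0.913 against 28.6 and 3.98 TPM, -2.95) and the exonuclease gene *Isg20* (0.175, 0.106, 0.302 and 0.316 against 23.4 and 1.57 TPM, -2.70, adjusted p = 0.0202) complete the 12. In *Hoxb9*, *Gm20219* and *Isg20*, CLIPΔ replicate 1 was far above replicate 2. Without replicate 1 the values of the first 2 were -2.39 and -1.67 and *Isg20* was under the minimum of 1 TPM, and without replicate 2 all 3 were lower (-4.00, -4.24 and -4.32).

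Among the 12 highest, *Krt17*, a keratin of basal epithelia, was at 19.3, 21.3, 22.3 and 21.6 TPM against 1.92 and 4.92 TPM (log2 fold change 2.41, standard error 0.254, adjusted p = 0.00152). *Hist1h2ap*, a replication-dependent histone H2A gene, was at 461, 417, 441 and 397 TPM against 73.9 and 108 TPM (2.25, adjusted p = 0.000692), and *Snord104*, a small nucleolar RNA, at 873, 697, 909 and 808 against 228 and 134 TPM (2.22, adjusted p = 0.00135). All 3 were higher in every deleted library, with controls close to each other next to the difference. *Hist1h2ap* has near-identical copies and its value is uncertain for that reason. The transcripts of *Hist1h2ap* and *Snord104* are only 482 and 70 bases long. The part of library preparation in the values of such short RNAs was not tested. *Mir124a-1hg*, a host transcript of the neural miR-124, was at 4.85, 6.68, 9.54 and 8.76 against 0.965 and 1.35 TPM (1.94).

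Several of the highest were developmental transcription factors whose controls disagreed. *Foxd1* was at 101, 95.7, 139 and 135 TPM against 12.3 and 50.8 TPM (2.15, adjusted p = 0.00946). *Nkx1-2* was at 120, 121, 90.3 and 91.8 TPM against 12.98 and 51.0 TPM (1.97), *Tlx2* at 220, 210, 174 and 175 against 26.5 and 90.3 TPM (1.96), and the chromatin remodelling subunit gene *Smarcd3* at 27.6, 29.0, 24.4 and 23.7 against 2.73 and 12.6 TPM (1.93). In all 4, CLIPΔ replicate 1 was the lowest library, and without it the values were 1.17 for *Foxd1*, 1.03 for *Nkx1-2*, 1.09 for *Tlx2* and 1.00 for *Smarcd3*, against 3.14, 2.92, 2.83 and 2.86 without replicate 2. The protease gene *Klk10* was at 36.6, 36.8, 28.6 and 25.6 against 2.35 and 13.4 TPM (2.23, adjusted p = 0.0102), with 1.18 and 3.28 without CLIPΔ replicate 1 or 2.

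The last 3 differed between the pairs of deleted libraries. *Inhbb*, a subunit of activin B, was at 33.1, 32.4, 17.9 and 19.3 TPM against 3.48 and 6.60 TPM (2.14, adjusted p = 0.00331). *Chac1*, a glutathione-degrading enzyme induced by the integrated stress response, was at 29.1, 30.2, 78.9 and 76.7 against 6.15 and 16.1 TPM (2.15, adjusted p = 0.0134), and *Grrp1* was at 23.8, 21.8, 8.49 and 9.57 against 1.71 and 4.25 TPM (2.03, adjusted p = 0.0108). Groups did not overlap in any of them, but *Chac1* and *Grrp1* no longer passed without CLIPΔ replicate 1 (adjusted p = 0.124 and 0.101), where *Chac1* was at 1.53, against 2.78 without replicate 2. All 24 genes passed under both other scalings and with the GC and length trend removed.

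**Figure D3:**
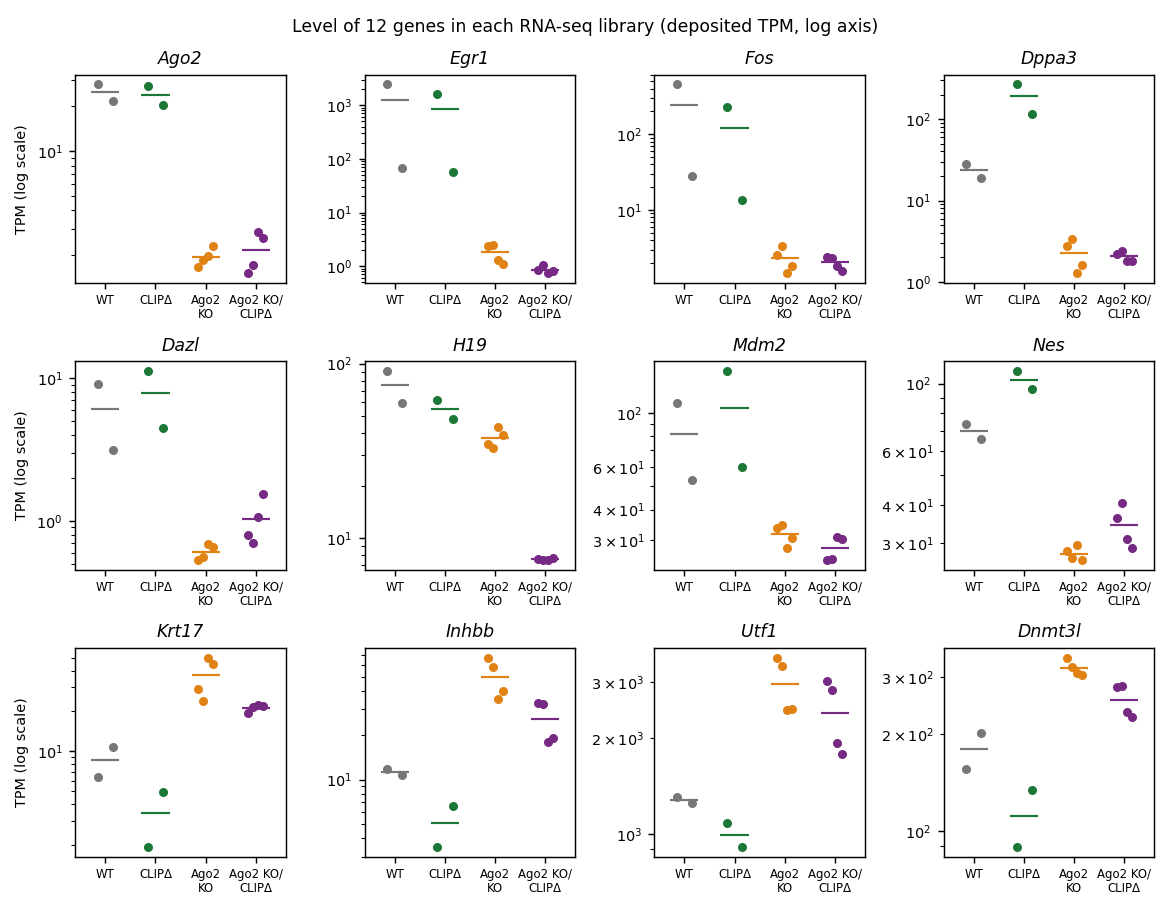
The level of 12 genes is shown in each of the 12 RNA-seq libraries (TPM, log axis), with a point for each library and a line at the mean of each genotype. *Egr1* and *Fos* were spread widely over the 2 WT and the 2 CLIPΔ libraries, *Dppa3* was highest in CLIPΔ (269 and 117 TPM), and *H19* was lowest in *Ago2* KO/CLIPΔ (7.50 to 7.72 TPM).

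Of the Argonaute and GW182 silencing complex, 10 members were tested, 1 rose and 4 fell, with a median of -0.56 against -0.25 over all genes. Beside *Ago2*, these were *Ddx6*, a helicase of mRNA decay (24.5, 25.3, 33.0 and 33.0 against 72.2 and 53.4 TPM, -1.09), *Cnot1*, the scaffold of CCR4-NOT (56.1, 61.5, 72.9 and 73.8 against 134 and 114 TPM, -0.90), and *Pabpc1*, the poly(A)-binding protein (-0.55). The helicase *Mov10* rose (0.34, adjusted p = 0.0417). *Limd1*, which bridges Argonaute and GW182 proteins, had -0.58 (adjusted p = 0.00782) and did not pass every scaling. After the trend was removed the median of the list was -0.22, with 1 higher and 4 lower. *Pabpc1* (-0.10, adjusted p = 0.391) and *Mov10* (0.31, adjusted p = 0.112) did not pass then, nor with the pairs averaged (adjusted p = 0.056 and 0.191). Of 12 genes of miRNA processing, 2 rose and 3 fell (median -0.24). The Drosha cofactors *Ddx5* (-1.12) and *Ddx17* (-0.66) and the chaperone *Hsp90aa1* (-0.83), which helps load Argonautes, fell. *Ran*, the GTPase of pre-miRNA export (0.66), and *Tarbp2*, a partner of Dicer (0.52, named after its values were seen), rose. *Dicer1* had -0.60 (adjusted p = 0.0148) without passing every scaling. *Mov10* did not pass with either CLIPΔ library left out (adjusted p = 0.114 and 0.0985), and *Ddx17* (0.077), *Hsp90aa1* (0.062) and *Tarbp2* (0.139) did not without replicate 1. *Hsp90aa1* also missed the threshold with the trend removed (0.0564) and *Tarbp2* with the pairs averaged (0.0817).

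The seeds and sites of let-7 are shown because the targets below are divided by whether they hold such a site. The mature let-7a-5p and miR-291a-3p are given as in RefSeq with the seed, bases 2 to 8, in capitals, followed by 28-base windows of 3'UTRs with the let-7 site of 8 bases in capitals (letters CTACCTCA, on the strand of the mRNA, GRCm38).
let-7a-5p: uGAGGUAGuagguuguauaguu
miR-291a-3p: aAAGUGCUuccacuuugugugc
*Hmga2*: cattcaatttCTACCTCAgcatcagttg
*Igf2bp2*: caaataaaagCTACCTCAggtgtttttt
*Lin28a*: gcctgttgaaCTACCTCAtttttgccga
*Trim71*: tgcctaagtcCTACCTCAgcttaaattt
The sites shown begin at base 58 of 3014 in the 3'UTR of *Hmga2* (chromosome 10), 1313 of 1784 in *Igf2bp2* (chromosome 16), 909 of 2775 in *Lin28a* (chromosome 4) and 166 of 5512 in *Trim71* (chromosome 9). Further sites of the same letters begin at base 1547 in *Lin28a* and at 262, 3591 and 3617 in *Trim71*. A match of letters is not a tested site.

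None of these let-7 target mRNAs rose, and 2 fell. *Hmga2*, a chromatin protein and long-known let-7 target, was at 1.52, 1.55, 1.99 and 1.85 TPM against 5.28 and 3.87 TPM (-1.02, adjusted p = 0.0034). *Igf2bp2*, an mRNA-binding protein, was at 5.65, 6.11, 7.49 and 7.66 TPM against 17.8 and 11.0 TPM (-0.97, adjusted p = 0.00901, and 0.0595 without CLIPΔ replicate 1). All deleted libraries were below both controls in both genes. *Lin28a*, the RNA-binding protein that blocks let-7 maturation, was at 102, 95.0, 68.9 and 74.0 TPM against 44.6 and 72.1 TPM (0.55, adjusted p = 0.078), and these groups overlapped. *Trim71* had a log2 fold change of -0.14 (adjusted p = 0.30). *Igf2bp2*, *Lin28a* and *Trim71* were named here for their sites after their values were seen.

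Of 34 classical let-7 targets tested, 3 rose and 9 fell, with a median of -0.54 and, after the trend was removed, -0.11. Among those that fell were *Cdc25a* (-0.68), *Hmga2*, *Map4k4* (-0.86) and *Zfp280b* (-0.55), and *Hmga1* (0.91), *Col4a1* and *Nme6* were the 3 that rose. The 16 members with an 8-base site had 0 that rose and 6 that fell (median -0.54), and the 18 without one had 3 and 3 (median -0.55). With the trend removed the whole list had 5 higher and 8 lower, of which 2 and 4 held a site (median -0.11) and 3 and 4 did not (median -0.09). *Zfp280b* (-0.09, adjusted p = 0.36) and *Cdc25a* (-0.23, adjusted p = 0.103) no longer passed, and with the pairs averaged *Zfp280b* (0.0534), *Col4a1* (0.232) and *Nme6* (0.183) did not. Of 8 let-7 regulators, 0 rose and 3 fell. These were *Hnrnpa1*, which binds let-7 precursors (-1.06), and the uridylyl transferases *Tut4* (-0.81) and *Tut7* (-0.98). Of these 3, 1 passed with the trend removed, where *Tut4* had -0.09 (adjusted p = 0.426) and *Tut7* had -0.41 (adjusted p = 0.0559), and the median of the list was -0.07. Of 26 targets ascribed to miR-290 and miR-302, 2 rose and 6 fell (median -0.32). The cell cycle inhibitor *Cdkn1a* was at 253, 251, 273 and 257 TPM against 624 and 433 TPM (-1.01, adjusted p = 0.00313), and *Mbd2* (-0.86), *Zfp148* (-1.17), *Arid4b* (-0.97) and *Nfib* (-0.85) fell as well. With the trend removed the median of this list was -0.06, with 3 higher and 4 lower, and 3 of the 6 that fell still passed. *Arid4b* (-0.21, adjusted p = 0.176) and *Nfib* (-0.13, adjusted p = 0.445) did not. *Lefty2*, an inhibitor of Nodal and a known miR-302 target, rose (143, 149, 260 and 250 against 112 and 87.0 TPM, 0.96). *Lefty2* did not pass with either CLIPΔ library left out (adjusted p = 0.0761 and 0.14). Without CLIPΔ replicate 1, *Hmga1* (0.1), *Col4a1* (0.184), *Nme6* (0.195) and *Tut7* (0.0889) did not pass, so that 0 of the let-7 targets rose and 6 fell, and *Nfib* was under the minimum of 1 TPM without either library.

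The same comparison was made over all 3'UTRs. Of 10795 tested genes with a 3'UTR, 461 held the let-7 site and had a median log2 fold change of -0.30, against -0.25 for the others. For 379 genes with the miR-291a-3p site (letters AGCACTTA) the median was -0.44 against -0.24. Over 15 seed families the difference ran from -0.30 to 0.01, and in 14 of 15 the genes with a site were lower. The brain miRNA miR-9, which is not listed in the small-RNA table, had a difference of -0.13, within the range of the families of mESCs. After the trend on GC content and length was removed, the differences ran from -0.08 to 0.05 and 8 of 15 were negative. No family thus had a median that was higher by more than 0.05 in genes with its site.

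Some of the matching miRNA families had themselves changed their shares. Over the 507 miRNAs of the small-RNA table (442 with a RefSeq sequence), the let-7 family took 0.379% ± 0.026 of the summed values in *Ago2* KO/CLIPΔ and 6.504% ± 0.589 in CLIPΔ (SD, n = 4 each), with 0.444% ± 0.037 in *Ago2* KO and 0.716% ± 0.376 in WT. In *Ago2* KO/CLIPΔ against CLIPΔ, the family of miR-291a-3p took 12.5% ± 0.429 against 29.9% ± 3.05, and that of miR-148 took 8.10% ± 0.567 against 1.62% ± 0.559. In *Ago2* KO against WT, these 2 families took 14.5% against 35.2% and 8.21% against 1.48%. Of the other families, some differed little between *Ago2* KO/CLIPΔ and CLIPΔ, such as miR-92 (4.75% against 4.71%) and miR-182 (4.85% against 5.32%). Several others differed widely. The shares of miR-130 (0.034% against 0.668%) and miR-183 (2.15% against 5.86%) were lower in *Ago2* KO/CLIPΔ. Those of miR-290a-5p (5.50% against 1.66%) and miR-293 (10.1% against 4.01%) were higher. A share falls when another miRNA rises, so it is not a level.

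Of 24 genes of naive pluripotency, 2 rose and 3 fell, with a median of -0.10. Beside *Dppa3*, the transcription factors *Prdm14* (19.4, 22.5, 21.9 and 22.3 against 47.6 and 34.6 TPM, -0.88) and *Nr5a2* (4.94, 5.46, 5.66 and 5.89 against 17.6 and 10.2 TPM, -1.16) fell. *Utf1*, a chromatin-bound factor of pluripotent cells, rose, with 3036, 2841, 1939 and 1791 TPM against 1081 and 910 TPM (1.24, adjusted p = 0.00614), and so did *Klf2* (0.50, named after its values were seen). The core factor *Pou5f1* was at 3095, 3094, 3084 and 3178 TPM against 2313 and 2754 TPM (0.30, adjusted p = 0.0484), and *Nanog* was at 729, 746, 581 and 613 TPM against 1069 and 939 TPM (-0.59, adjusted p = 0.0108). Neither passed under every scaling. *Klf2* did not pass with either CLIPΔ library left out (adjusted p = 0.057 and 0.143), with the trend removed (0.188) or with the pairs averaged (0.0971), and *Nr5a2* did not with the trend removed (0.0511). Of 9 genes of the primed state, *Pou3f1* (0.61) and *Etv4* (0.68) rose and *Zic2* fell (-1.26), and neither of the first 2 passed without CLIPΔ replicate 1 or with the pairs averaged (adjusted p = 0.104 and 0.0608). Of 12 genes of the LIF and Stat3 pathway the kinase gene *Pim3* (547, 545, 493 and 475 against 269 and 282 TPM, 0.90) and the feedback inhibitor *Socs3* (0.64, and adjusted p = 0.0755 without CLIPΔ replicate 1 and 0.054 with the trend removed) rose and none fell.

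Of 10 germline genes of the kind that DNA methylation keeps silent, 5 fell and 0 rose (median -0.90). The data hold 22 genes of this list, and those with a mean under 1 TPM were left out. *Hormad1* (means of 0.362 against 2.68 TPM) and *Sycp3* (0.572 against 2.20 TPM) reached that minimum only through CLIPΔ. The count and the median are therefore set in part by the filter. *Dazl*, an RNA-binding protein of germ cells, was at 0.791, 0.695, 1.07 and 1.55 TPM against 11.3 and 4.50 TPM (-2.04, adjusted p = 0.00363). The meiotic genes *Hormad1* (-1.38) and *Sycp3* (-1.04) and the X-linked *Rhox5* (9.04, 8.43, 9.20 and 10.02 against 16.5 and 24.8 TPM, -1.06) and *Magea4* (13.2, 14.4, 18.1 and 29.9 against 55.2 and 40.3 TPM, -1.35) were the others. *Hormad1* had at most 0.426 TPM in the deleted libraries. After the trend was removed the median was -0.38, with 1 higher and 4 lower, and *Hormad1* (adjusted p = 0.051) and *Sycp3* (-0.17, adjusted p = 0.247) did not pass. Without CLIPΔ replicate 1, *Dazl* and *Rhox5* passed, *Magea4* did not (adjusted p = 0.0961), and *Hormad1* and *Sycp3* were under the minimum of 1 TPM, as was *Sycp3* without replicate 2. Of 15 DNA methylation enzymes and readers, 1 rose and 5 fell (median -0.22). *Dnmt3l*, the cofactor that stimulates de novo methylation, was at 280, 282, 234 and 226 TPM against 89.3 and 134 TPM (1.21, adjusted p = 0.00331). The methyl-CpG binding protein genes *Mbd1* (10.2, 10.4, 12.4 and 12.8 against 26.6 and 27.0 TPM, -1.17) and *Mbd2*, the Uhrf1 relative *Uhrf2* (-1.11), *Gadd45a* (-1.56) and the dioxygenase *Tet1* (15.996, 18.003, 28.04 and 26.8 against 53.3 and 39.7 TPM, -1.06) fell. *Tet1* did not pass once the trend was removed (adjusted p = 0.09) or without CLIPΔ replicate 1 (0.103), nor did *Gadd45a* without that library (0.101).

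Of 29 imprinted genes, 2 rose and 8 fell (median -0.43, and 0.03 after the trend was removed). Beside *H19*, the X-linked *Xlr4b* (0.542, 0.639, 1.06 and 1.00 against 4.29 and 4.21 TPM, -1.55), the deiodinase *Dio3* (24.2, 20.4, 14.1 and 13.4 against 61.0 and 58.3 TPM, -1.71), *Jade1* (-1.01) and *Peg3* (-0.79) fell. The Notch-like ligand *Dlk1*, from the same cluster as *Dio3*, rose from 0.439 and 0.709 TPM to between 1.40 and 2.35 TPM (0.87), as did *Phlda2* (0.66, and adjusted p = 0.0831 without CLIPΔ replicate 1 and 0.0691 with the pairs averaged). *Peg3* did not pass with the trend removed (-0.20, adjusted p = 0.342).

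Of 24 genes of the p53 response, 8 fell and 1 rose, with a median of -0.58, and of -0.53 after the trend was removed. *Mdm2*, the ubiquitin ligase that restrains p53, was at 24.7, 25.1, 30.8 and 30.2 TPM against 149 and 59.7 TPM (-1.74, adjusted p = 0.00563). *Trp53inp1*, a stress-induced regulator, was at 26.1, 24.8, 34.2 and 33.8 TPM against 171 and 68.4 TPM (-1.85), and *Pmaip1* (Noxa), a pro-apoptotic BH3 protein, at 1.44, 1.32, 2.75 and 2.39 against 25.1 and 7.001 TPM (-2.31). CLIPΔ replicate 1 was the highest library for all 3, and without it the values were -1.09, -1.19 and -1.46, against -2.39, -2.50 and -3.16 without replicate 2. *Cdkn1a* fell as described. *Bax*, another pro-apoptotic target, rose (995, 958, 882 and 840 against 643 and 634 TPM, 0.52), but did not pass with the trend removed (0.18, adjusted p = 0.122) or with the pairs averaged (adjusted p = 0.0623).

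Of 30 cell cycle genes, 1 rose and 8 fell (median -0.40, and -0.09 after the trend was removed). The proliferation marker *Mki67* was at 41.2, 41.4, 41.9 and 45.0 TPM against 167 and 105 TPM (-1.62, adjusted p = 0.00157). *Top2a*, topoisomerase II of dividing cells, was at 91.9, 92.7, 92.8 and 99.2 TPM against 238 and 208 TPM (-1.23, adjusted p = 0.000905), and *E2f3* at 4.58, 4.79, 4.80 and 4.77 against 9.39 and 9.37 TPM (-0.86). The deleted libraries lay close together and apart from the controls in all 3. *Ccnd3*, a D-type cyclin, rose (41.3, 39.4, 33.2 and 32.3 against 14.4 and 18.7 TPM, 1.101).

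The integrated stress response was the list with the highest median (0.32, and 0.41 after the trend was removed), with 4 of 19 that rose and 2 that fell. The mitochondrial serine enzyme *Shmt2* (754, 788, 920 and 897 against 594 and 520 TPM, 0.59), *Chac1*, *Herpud1*, which acts in degradation from the endoplasmic reticulum (40.1, 41.9, 67.2 and 66.8 against 22.3 and 28.7 TPM, 1.02), and *Trib3* (0.78, named after its values were seen) rose. *Ddit4*, an inhibitor of mTORC1, was at 131, 143, 184 and 163 TPM against 676 and 385 TPM (-1.72), and the chaperone *Hspa5* was at 915, 942, 723 and 732 against 2344 and 1301 TPM (-1.09). In *Shmt2*, *Chac1* and *Herpud1* replicates 3 and 4 of the deleted cells were above replicates 1 and 2. *Herpud1* and *Hspa5* did not pass without CLIPΔ replicate 1 (adjusted p = 0.109 and 0.0502), and *Trib3* did not pass with either control left out (0.126 and 0.0917), so that 1 rose and 1 fell without replicate 1. With the trend removed, *Shmt2* (0.46, adjusted p = 0.0501), *Trib3* (0.60, adjusted p = 0.114) and *Hspa5* (-0.62, adjusted p = 0.118) did not pass.

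In central metabolism, 4 of 18 glycolysis genes rose and none fell (median 0.24, and 0.39 after the trend was removed). *Eno1* was at 1207, 1257, 1253 and 1237 TPM against 635 and 813 TPM (0.78, adjusted p = 0.00333). *Pfkl* (218, 233, 293 and 289 against 156 and 158 TPM, 0.71), *Pkm* (0.47) and *Pgam1* (0.39) rose as well, and *Tpi1* had 0.58 (adjusted p = 0.0139) without passing every scaling. With the pairs averaged, *Pkm* (adjusted p = 0.0913) and *Pgam1* (0.126) did not pass. Of 22 genes of cholesterol synthesis, 5 rose and 2 fell. *Mvd*, which makes isopentenyl pyrophosphate, was at 229, 217, 216 and 205 TPM against 86.3 and 101 TPM (1.204, adjusted p = 0.00112), and *Mvk* (60.3, 57.6, 61.2 and 56.9 against 31.2 and 31.7 TPM, 0.89), *Fdps* (0.43) and *Ebp* (0.46) rose with it. *Hmgcs1*, the synthase that makes HMG-CoA, fell (54.1, 56.0, 81.3 and 86.3 against 199 and 114 TPM, -1.14, named after its values were seen). It lost significance without CLIPΔ replicate 1 (adjusted p = 0.111; *Ebp* 0.0576) and after removal of the trend (0.0725), and 4 of the 5 that rose and 0 of the 2 that fell passed without that library. *Fdps* (0.0997) and *Ebp* (0.0958) did not pass with the pairs averaged.

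In signalling pathways, 4 of 13 Wnt targets fell and 1 rose (median -0.45, and -0.30 after the trend was removed). *Sp5*, a direct target of beta-catenin, was at 153, 150, 159 and 153 TPM against 338 and 372 TPM (-1.20, adjusted p = 0.000771), and *Axin2*, the feedback inhibitor, at 19.5, 19.11, 22.4 and 22.6 against 42.2 and 43.1 TPM (-0.999). *Wnt8a* (-0.89) and *Rnf43* (-0.83, and under the minimum of 1 TPM without CLIPΔ replicate 2) fell as well. In contrast to *Egr1* and *Fos*, the controls agreed closely in these Wnt targets. Of 15 MAPK targets, *Egr1*, *Fos* and *Ier3* (-0.66) fell, *Spry4*, an inhibitor of receptor tyrosine kinase signalling (53.6, 54.7, 49.98 and 52.4 against 19.9 and 33.6 TPM, 0.99), and *Etv4* (0.68) rose, and *Spry2* had -0.58 without passing every scaling. Of 21 genes of the TGF-beta and Nodal pathway, 3 rose and 3 fell. *Id1*, a target of BMP signalling, rose (139, 146, 136 and 139 against 29.6 and 100 TPM, 1.34) with 0.48 without CLIPΔ replicate 1 and 2.21 without replicate 2, whereas its relative *Id2* fell (4.27, 3.45, 1.77 and 2.96 against 10.5 and 8.80 TPM, -1.41), along with the receptor genes *Bmpr1a* (-0.79) and *Tgfbr1* (-0.88). Without CLIPΔ replicate 1, *Ier3* (adjusted p = 0.0595), *Etv4* (0.209), *Bmpr1a* (0.0633) and *Tgfbr1* (0.0542) did not pass. With the trend removed, *Bmpr1a* had -0.04 (adjusted p = 0.70) and *Tgfbr1* had -0.13 (adjusted p = 0.438), and 5 genes of this pathway were higher and 1 lower.

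Of 16 early lineage genes, 4 rose and 2 fell. The neural intermediate filament gene *Nes* was at 36.4, 40.7, 31.1 and 29.0 TPM against 110 and 95.7 TPM (-1.57, adjusted p = 0.00135), whereas the neuronal tubulin gene *Tubb3* was at 132, 132, 97.2 and 96.4 TPM against 49.7 and 68.9 TPM (0.94, adjusted p = 0.0079). The organizer gene *Gsc* fell (13.5, 15.4, 10.2 and 10.7 against 34.4 and 29.4 TPM, -1.31), and *Krt17*, *Eomes* (0.62) and *Krt8* (0.51) rose. *Krt8* and *Eomes* are also in the trophectoderm and mesoderm marker lists, and neither passed with either control left out, nor did *Tubb3* without CLIPΔ replicate 1 (adjusted p = 0.065). With the pairs averaged *Eomes* (0.0676) and *Krt8* (0.098) did not pass either, nor did *Krt8* with the trend removed (0.151). Of 14 genes of matrix and adhesion, 4 rose and 3 fell. The epithelial adhesion genes *Epcam* (11.8, 13.1, 12.4 and 13.2 against 25.8 and 25.2 TPM, -0.96) and *Cdh1* (90.1, 100, 112 and 105 against 224 and 175 TPM, -0.96) fell, and the integrin *Itga5* (0.81) and the gelatinase *Mmp2* (0.61, and adjusted p = 0.065 without CLIPΔ replicate 1 and 0.089 with the pairs averaged) rose. Of 3 tested genes listed under the 2-cell-like state, only *Zfp809* fell (-1.45). It encodes a repressor of endogenous retroviruses, and its fall is not read as a change of that state. None of 7 genes beside *Ago2* on chromosome 15 changed under every scaling (median -0.09), the lowest p being that of *Slc45a4* (-0.43, adjusted p = 0.0158), and neither of the 2 fibroblast markers tested passed (*Pdgfrb* 0.24 and *Thy1* 0.18).

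**Figure D4:**
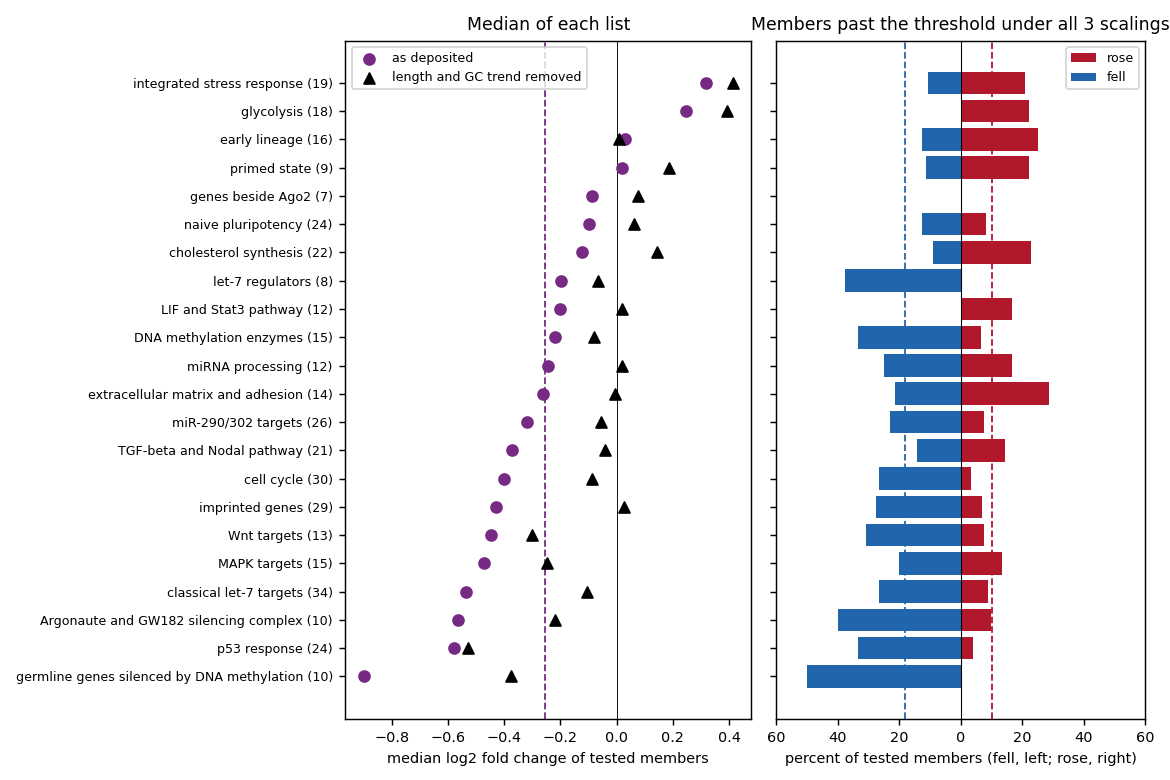
For each list with at least 7 tested members (number in brackets), the left panel gives the median log2 fold change as deposited and after removal of the length and GC trend, and the right panel the percent of members that rose or fell, with dashed lines at the values of all 11256 genes (10.3% and 17.9%). The medians run from -0.90 for germline genes to 0.32 for the integrated stress response, and several that lie left of the dashed line are close to 0 once the trend is removed. The germline median is set in part by the minimum of 1 TPM, which some members reached only through CLIPΔ.

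The Trim71 CLIP-seq of the series had 154 peaks in 3'UTRs among 498 peaks. Of the 126 genes with such a peak, 104 were tested, of which 3 rose and 44 (42.3%) fell, with a median of -0.61. Of the 11029 genes with no peak, 10.4% rose and 17.6% fell, with a median of -0.25. Genes with such a peak were also lower in GC content (median 44.5% against 50.6%) and longer (4983 against 3157 bases). The paper places a Trim71 peak in the 3'UTR of *Ago2*, the deleted gene, which itself fell. After the trend was removed, genes with a 3'UTR peak had a median of -0.14, with 4 higher and 20 lower. Genes with no peak then had a median of 0.03, with 1871 higher and 1692 lower. The shares over all genes were 16.9% higher and 15.5% lower. The part of base composition in the remainder was not tested further.

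The effect of *Ago2* loss in CLIPΔ cells was then set against that in otherwise WT cells, where 1574 genes (14.0%) were higher and 4897 (43.5%) lower on the same gene set, with a median of -0.26. The fold changes of the 2 comparisons, which share no library, correlated at r = 0.858 across genes, and both carry the GC trend. The 2 comparisons are not fully separate, since deviations of same-numbered WT and CLIPΔ libraries correlated at r = 0.716. Of the 1157 genes that rose, 890 (76.9%, or 56.5% of those higher in the WT background) were also higher on *Ago2* loss from WT cells, and 5 were lower. Of the 2020 that fell, 1861 (92.1%, or 38.0%) were also lower and 6 were higher. The WT-background calls were made on the TPM scale alone, whereas genes that rose or fell had to pass under every scaling. The shares of 56.5% and 38.0% depend in part on this stricter rule and do not measure effects limited to either background. In a test of the difference itself over all 12 libraries, 76 genes (0.675%) passed, 65 (0.577%) with a lower and 11 (0.0977%) with a higher value in the CLIPΔ background, and 906 had an unadjusted p under 0.05. In 56 of the 65, CLIPΔ had the highest mean of the 4 genotypes, and in 48 both CLIPΔ libraries were above every other library. Genes were kept by their mean over the CLIPΔ and *Ago2* KO/CLIPΔ libraries, so a gene high only in WT or *Ago2* KO could not enter. A gene high only in CLIPΔ could, such as *Lcp1*, with means of 4.30 TPM in CLIPΔ and 0.342 TPM in *Ago2* KO/CLIPΔ. With genes kept by their mean over all 12 libraries, 73 of 11287 passed, 62 lower and 11 higher, with CLIPΔ highest in 52 of the 62 and both its libraries above every other in 44. A high CLIPΔ value by itself lowers the tested difference. Both tallies therefore only describe the genes that passed and are no separate evidence.

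*Dppa3* had the largest difference among the named genes. Its mean in CLIPΔ was 8.20 times that in WT (28.3 and 18.8 TPM), while *Ago2* KO/CLIPΔ was at 0.909 of *Ago2* KO, so that the deletion brought both backgrounds to about 2 TPM. The difference of the log2 fold changes was -2.94 (standard error 0.457, adjusted p = 0.00993). *Slc22a13b-ps* (-2.62) and *Rhox3g* (-2.57) had the same pattern. *H19* differed in another way. WT (91.0 and 59.2 TPM) and CLIPΔ (62.3 and 48.3 TPM) overlapped, but *Ago2* KO kept 33.0 to 43.3 TPM whereas *Ago2* KO/CLIPΔ had 7.50 to 7.72 TPM (difference -1.75, standard error 0.233, adjusted p = 0.00527). *Aurkc*, a meiotic Aurora kinase (0.984, 1.32, 1.47 and 1.43 against 11.2 and 10.8 TPM; difference -1.84), and *Tfap2c*, a transcription factor of trophectoderm and germ cells (11.1, 10.2, 10.7 and 10.5 against 57.5 and 55.7 TPM, with 34.1 and 25.1 TPM in WT; difference -1.12), were chosen after their values were seen.

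Of the 11 genes with a higher value in the CLIPΔ background, 4 lie in the imprinted *Dlk1*-*Dio3* cluster of chromosome 12, and they too were chosen after their values were seen. They are *Meg3* (GRCm38, 109541001 to 109571726, plus strand), *Rtl1* (109589193 to 109600330, minus strand), *Rian* (109603940 to 109661716, plus strand) and *Mirg* (109729764 to 109749460, plus strand). The maternally expressed RNA *Meg3* was at 39.3, 49.99, 73.1 and 66.7 TPM in *Ago2* KO/CLIPΔ and 82.3 and 68.7 TPM in CLIPΔ, a log2 fold change of -0.43 (adjusted p = 0.175) with groups that overlap. In *Ago2* KO it was at 29.1, 27.9, 23.3 and 27.3 TPM and in WT at 147 and 132 TPM, a log2 fold change of -2.33. The difference between backgrounds was 1.90 (standard error 0.290, adjusted p = 0.0087), and *Rian* (1.73), *Mirg* (1.71) and *Rtl1* (1.70) differed by nearly as much. *Rtl1* is transcribed antisense to part of the locus and *Rian* and *Mirg* host many small RNAs, and the assignment of reads within the cluster was not tested.

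**Figure D5:**
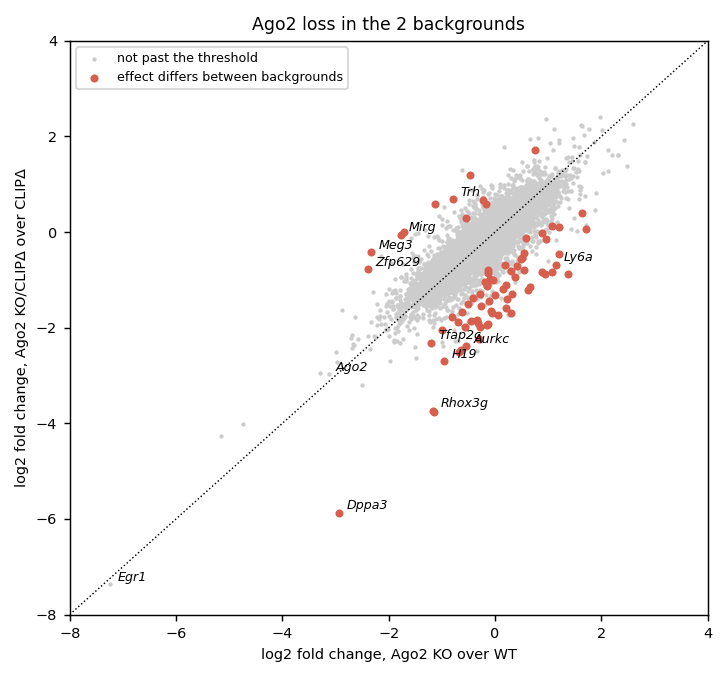
Each point is a tested gene, with its log2 fold change of *Ago2* KO over WT on the x axis and of *Ago2* KO/CLIPΔ over CLIPΔ on the y axis, and a dotted line where both are equal. Most genes lie near the line (r = 0.858), and the 76 genes whose effect differed (red) include *Dppa3*, *Rhox3g* and *H19* below it and *Meg3* and *Mirg* above it.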

How the data were processed

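RNA-seq libraries were made from total RNA with the NEBNext Ultra Directional kit. HISAT2 2.1.0 was used by the authors for mapping to mm10, reads were assigned to each gene's longest transcript, and TPM values of unpooled libraries were deposited for genes above 0 in every library. The small-RNA values are TPM deposited by the authors, and the CLIP-seq file holds read counts per common peak as the authors deposited them, of which only the annotation was used here. TPM keeps no depth. Columns were matched to samples by name, the code of the CLIPΔ columns being read as CLIPΔ because the names of the other genotypes are plain.

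log2(TPM + 1) was fitted in limma 3.58.1 (R 4.3.3; lmFit, eBayes with trend) on 4 against 2 libraries, with Benjamini-Hochberg adjustment over the 11256 genes and a threshold of 0.05. The study's edgeR test needs counts, and limma stood in for it. An exact permutation test of 4 against 2 cannot go below p = 0.0667. The difference between backgrounds was a contrast in all 12 libraries. Of the tested genes, 11180 (99.3%) matched GENCODE M21 symbols for length, GC content and 3'UTRs. The trend was removed with a spline fit per library. The fit was tested on simulated data.

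The named genes are the Argonautes, the 12 highest and 12 lowest fold changes among genes past the threshold without overlap, and up to 5 members per list in order of adjusted p; a few further members, chosen after their values were seen, complete small counts, and 2 members that the rule names are not reported here. Alternatives were the pseudocount, the filter, the scaling, the replicate block and leaving out libraries. The genes, the 24 lists and the tests were chosen with earlier results of these data known. Of 19 seed families planned, miR-122, miR-1, miR-133 and miR-124 are not analysed here.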

Additional observations from a re-analysis of the deposited data

Results flagged for a closer look

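The loss of *Ago2* had an effect that differed between the CLIPΔ and the WT background, by the test of the difference in limma over all 12 libraries, for 4 of the named genes. The difference of the log2 fold changes was -2.94 for *Dppa3*, -2.62 for *Slc22a13b-ps*, -2.57 for *Rhox3g* and -1.75 for *H19*. In the first 3, the CLIPΔ controls were above the WT controls, and in *H19* the *Ago2* KO/CLIPΔ libraries were below the *Ago2* KO libraries.

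Within the 4 *Ago2* KO/CLIPΔ libraries, a library stood apart from the others by Dixon's test for 2 of 122 named genes. *Top2a* was highest in replicate 4, at 99.2 TPM, and *E2f3* was lowest in replicate 1, at 4.58 TPM. Chance alone marks about 5% of groups, and both genes stayed far below the CLIPΔ controls in all 4 libraries.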

How the results depend on the processing

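The log2 fold change of *Ago2* kept its direction and passed under every alternative, between -3.18 and -2.77 when libraries were left out. The count of 1205 higher and 4189 lower genes became 2384 and 2552 with median-of-ratios scaling, 2294 and 2329 with quantile normalization, 721 and 2467 with only replicates 3 and 4 of *Ago2* KO/CLIPΔ, and, in fits chosen after seeing the data, 1892 and 1735 with the length and GC trend removed and 453 and 2017 with replicates 1 and 2, and 3 and 4, averaged. Leaving out libraries gave 556 to 1702 higher and 2119 to 3953 lower genes, the lowest of both without CLIPΔ replicate 1. The 76 genes that differed between backgrounds became 168 with no filter, 46 with a mean of at least 5 TPM, 125 with the trend removed, 73 with genes kept by their mean over all 12 libraries (chosen after seeing the data), 58 to 148 with libraries left out (148 without CLIPΔ replicate 2), and 0 in limma with only replicates 1 and 2 of every genotype, where 814 genes had an unadjusted p under 0.05. With the trend removed, *Zfp281* (0.11) and *Tfcp2l1* (0.048) changed sign. The cause of these shifts was not tested, except that fewer libraries or genes entered some fits.

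The groups share only replicate numbers 1 and 2, and the main test has no pairing. Deviations of same-numbered *Ago2* KO/CLIPΔ and CLIPΔ libraries, from the means of these 2 libraries per group, correlated at r = 0.046. With *Ago2* KO/CLIPΔ deviations taken from the mean of its 4 libraries, r was -0.18 for number 1 and 0.23 for number 2. Deviations of same-numbered WT and CLIPΔ libraries correlated at r = 0.716. The numbers may thus mark something these controls share, which the labels do not name. With the replicate block on these numbers 1725 genes were higher and 5524 lower, and 178 differed between backgrounds.

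Of the 24 genes of highest and lowest fold change, all passed without any 1 *Ago2* KO/CLIPΔ library and without CLIPΔ replicate 2. Without CLIPΔ replicate 1, 21 of 23 tested passed, *Chac1* and *Grrp1* did not, and *Isg20* was under the minimum. *Ago2* aside, 8 of 23 did not pass with only replicates 3 and 4 of *Ago2* KO/CLIPΔ (*Klk10*, *Foxd1*, *Nkx1-2*, *Tlx2*, *Smarcd3*, *Fos*, *Gm20219* and *Isg20*) and 4 with only replicates 1 and 2 (*Foxd1*, *Smarcd3*, *Fos* and *Isg20*). Leaving out a CLIPΔ library moved 11 or 12 of the fold changes by over 1.5 times, among them *Egr1*, *Fos*, *Dppa3*, *Hoxb9* and *Foxd1*.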
